A study of Mus musculus with 6 samples.

Results

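The RNA of 9 chemokine receptors, Ccr8, Ccr4, Ccr2, Ccr6, Ccr9, Cxcr3, Cxcr4, Cxcr5 and Cxcr6, was analyzed in Tregs of the bone marrow (BM). The receptors were taken by name from the 36930 features of the deposited tables, and each of the 9 names occurred in every library. Tregs came from 3 naive mice and from 3 mice with chronic myeloid leukemia (CML), with 1 library for each mouse. All mice were Foxp3-DTR-GFP animals at 8 weeks of age, in which the Foxp3 locus expresses the diphtheria toxin receptor together with GFP. CML mice had received syngeneic LSKs (lin-Sca-1+c-kit+ stem and progenitor cells) carrying a BCR-ABL1-GFP retrovirus, without irradiation, and were analyzed at day 15 after CML induction. Naive mice received no leukemia. GFP is thus carried by Tregs in both groups and, in CML mice, also by leukemia cells.

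Chemokine receptors are G protein-coupled receptors with which leukocytes follow gradients of secreted chemokines into and within tissues. In the BM, Cxcr4 holds hematopoietic cells and lymphocytes close to stroma that secretes Cxcl12, while receptors such as Cxcr3 and Ccr2 guide T cells and monocytes to inflamed sites. Activated Tregs in tissues and tumors typically carry Ccr8, and expression of Cxcr3 on T cells depends on the transcription factor T-bet.

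Of the 9 receptors, Ccr8 was the only receptor whose RNA passed the test, and it was higher in CML Tregs. Cxcr3 and Cxcr4 were also higher in each CML library than in each naive library, and Cxcr5 was lower in each, but these differences did not pass the adjusted threshold. The values of Ccr2, Ccr4, Ccr6, Ccr9 and Cxcr6 overlapped between the groups. Values of 3 libraries are given in the order of their replicate numbers. They are in RPKM, reads scaled to the length of the feature and to the reads of the library, so that levels of different receptors can be set side by side. Differences are CML minus naive on the log2(RPKM + 1) scale and were tested with limma over all 13923 features with a mean of at least 1 RPKM. A feature was called at an adjusted p under 0.05 and a fold of at least 1.5. All 9 receptors were among the features tested.

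Estimated depth was 829181 to 7613827 reads for the CML libraries and 5187987 to 9751911 reads for the naive libraries. CML replicate 2 was the shallowest library, where 10 features took 50.7% of all RPKM (28.5% to 31.3% elsewhere). For the receptors, the estimated reads in a library ran from 12 for Cxcr5 in CML replicate 2 to 1892 for Cxcr4 in CML replicate 1. The Treg label was checked against Foxp3, Il2ra, Ctla4, Ikzf2, Cd4 and Cd3e. Reads of all 6 genes were present in every library, and Foxp3 lay between 297 and 468 RPKM.

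Ccr8, the receptor of Ccl1 and Ccl8, had 40.4, 32.9 and 44.9 RPKM in the CML mice against 7.99, 7.09 and 10.7 RPKM in the naive mice. The lowest CML library was thus well above the highest naive library. The means were 39.4 ± 6.05 against 8.60 ± 1.89 RPKM (SD, n = 3 each), or 4.59 times as high in CML. The log2 difference of Ccr8 was 2.08, with a 95% interval from 1.45 to 2.71 (limma adjusted p = 0.0416). Higher calls made up 0.0431% of all features tested, and lower calls, of which there was none among the receptors, 0.129%. By log2 difference, Ccr8 ranked 59 of 13923. In such bulk samples, more cells with Ccr8 RNA and more of this RNA in each cell cannot be told apart.

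The call of Ccr8 was not stable, although its size was. The log2 difference stayed between 1.97 and 2.23 under all 16 alternatives. Without CML replicates 1, 2 and 3, the adjusted p of limma rose to 0.101, 0.0552 and 0.138. Without naive replicates 1, 2 and 3 it rose to 0.166, 0.271 and 0.126. In the shallowest library, CML replicate 2, Ccr8 rested on an estimated 32 reads, and their 95% counting interval ran from 22.5 to 46.4 RPKM. This interval lies above the value of each naive library.

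**Figure D1:**
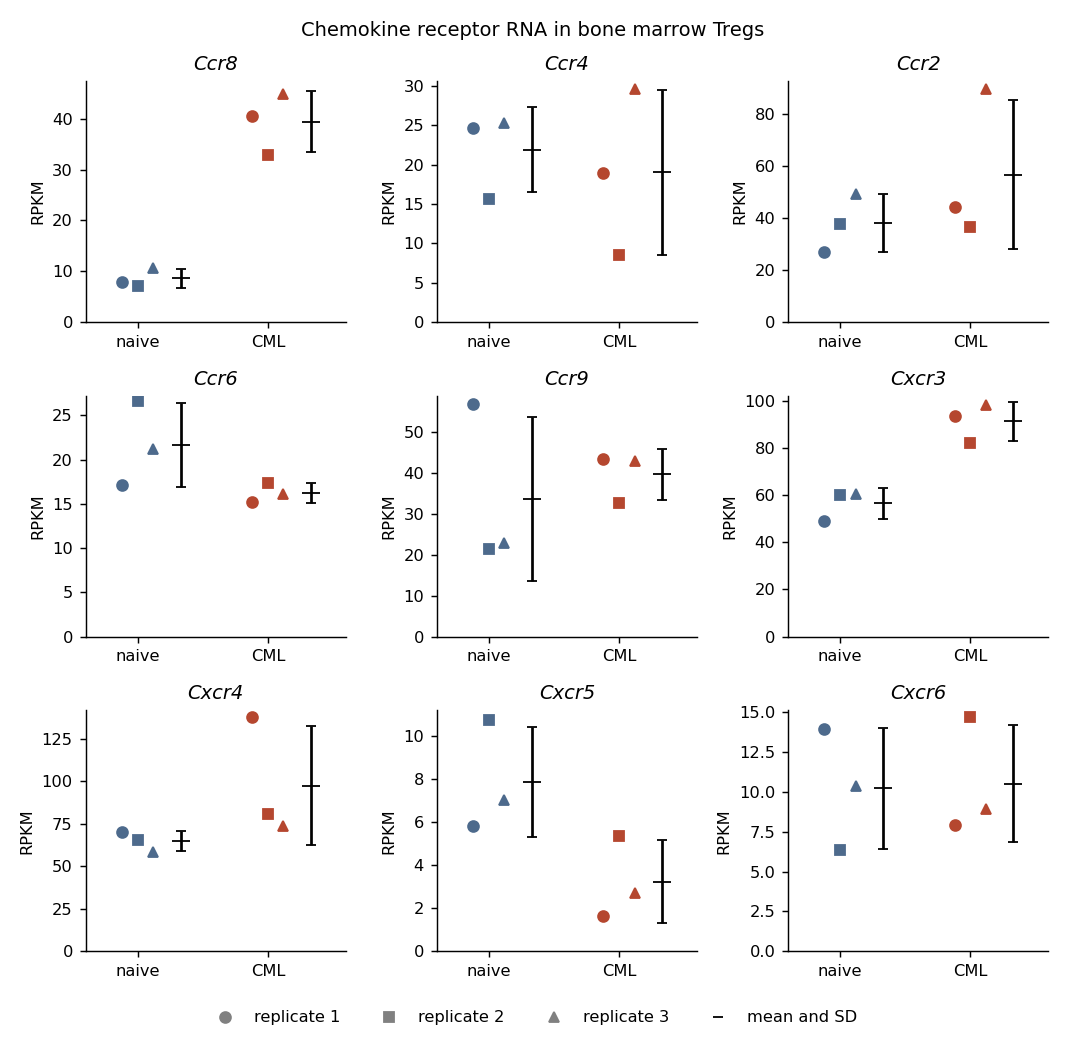
RPKM of the 9 receptors (vertical axes, each starting at 0) in naive and CML Tregs, with 1 point for each mouse, symbols for the replicate number, and bars for the mean and SD of 3 mice. The groups are apart for Ccr8 (7.09 to 10.7 in naive, 32.9 to 44.9 in CML), and also for Cxcr3, Cxcr4 and Cxcr5, while the points of the other receptors overlap.

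Ccr8 lies on chromosome 9 from 120092114 to 120094906 on the plus strand of GRCm38, the build that the labels name (GENCODE M21). Cxcr3 lies on chromosome X from 101731535 to 101734269 on the minus strand. The 250 bases before the RefSeq start of each gene are shown, as these receptors had the lowest unadjusted p-values of the 9. The RefSeq start is 120092133 for Ccr8 and 101734147 for Cxcr3, inside the GENCODE span of each gene, so that the windows overlap these spans. The windows were copied from RefSeq (GRCm38.p6), 5′ to 3′ on the strand of the gene. Capitals mark matches, on either strand, to 6 short motifs. These are the AP-1 site TGANTCA, the T-box core GTGTGA and the Klf box CACCC. The others are the GATA site AGATAA, the NFAT core TGGAAA and the TATA box, searched as TATAAA. The Ccr8 window is chr9:120091883-120092132, and the Cxcr3 window is chrX:101734148-101734397.
Ccr8: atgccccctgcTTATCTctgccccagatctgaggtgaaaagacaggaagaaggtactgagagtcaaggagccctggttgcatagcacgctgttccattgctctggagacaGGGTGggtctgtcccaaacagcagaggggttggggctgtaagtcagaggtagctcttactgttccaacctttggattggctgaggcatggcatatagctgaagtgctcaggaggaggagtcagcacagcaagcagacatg
Cxcr3: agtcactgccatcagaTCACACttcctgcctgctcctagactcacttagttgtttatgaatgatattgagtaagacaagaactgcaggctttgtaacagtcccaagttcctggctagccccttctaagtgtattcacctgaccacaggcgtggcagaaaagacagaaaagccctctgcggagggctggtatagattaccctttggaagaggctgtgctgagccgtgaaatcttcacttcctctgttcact
The Ccr8 window held a GATA match 239 to 234 bases before the RefSeq start and a CACCC match 140 to 136 bases before it. Of 32851 windows of this length, 9.99% held a GATA match and 52.0% a CACCC match. Ccr2 and Ccr6 also held a GATA match, and Ccr4, Ccr9 and Cxcr4 also held a CACCC match. The Cxcr3 window held a T-box core match 234 to 229 bases before the RefSeq start, a motif that 12.3% of all windows held. Of the 8 receptors with a window in the table, Cxcr3 was the only 1 with this match, and Ccr4 was the only 1 with an AP-1 match (6.75% of all windows). Ccr2, Ccr6 and Cxcr6 held the NFAT core (18.6% of all windows) and Cxcr4 the TATA box (12.4%). A match is a description of these letters and does not show that a factor binds.

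Cxcr3, which binds the interferon-induced ligands Cxcl9 and Cxcl10, had 93.4, 81.9 and 98.3 RPKM in the CML mice against 49.1, 60.2 and 60.4 RPKM in the naive mice. The lowest CML value thus exceeded the highest naive value. The means were 91.2 ± 8.39 against 56.5 ± 6.49 RPKM (SD, n = 3 each). The log2 difference of Cxcr3 was 0.68, with a 95% interval from 0.28 to 1.08, and it missed the threshold (limma unadjusted p = 0.00457, adjusted p = 0.271). At an unadjusted p under 0.05 with the same fold, Ccr8 and Cxcr3 were higher, beside 2.61% of all features, and no receptor was lower, beside 5.94%. With any library left out, the log2 difference of Cxcr3 lay between 0.58 and 0.76.

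Cxcr4, the receptor for Cxcl12 that retains cells in the BM, had 138, 80.8 and 73.7 RPKM in the CML mice against 70.1, 65.5 and 58.4 RPKM in the naive mice. The groups did not overlap, but the gap between CML replicate 3 and naive replicate 1 was small, and CML replicate 1 was far above the other CML libraries. Cxcr4 had a log2 difference of 0.53, with a 95% interval from -0.05 to 1.12 (limma adjusted p = 0.558), and with 1 library left out it ran from 0.25 (without CML replicate 1) to 0.70 (without CML replicate 3). The 3 receptors without overlap and with higher values in CML compare with 4.84% of all features tested.

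Cxcr5, which leads cells toward Cxcl13 in B cell follicles, was the receptor with the lowest level in CML Tregs. It had 1.64, 5.36 and 2.72 RPKM in the CML mice against 5.83, 10.7 and 7.02 RPKM in the naive mice. Each CML library was below each naive library, as in 12.2% of all features tested, so the absence of overlap does not set Cxcr5 apart. The means were 3.24 ± 1.92 in CML against 7.86 ± 2.56 RPKM in naive Tregs (SD, n = 3 each), with a log2 difference of -1.12 and a 95% interval from -2.25 to 0.01 (limma adjusted p = 0.518). In CML replicate 2, the 95% counting interval of the estimated 12 reads ran from 2.86 to 9.67 RPKM and so took in the values of naive replicates 1 and 3. With 1 library left out, the log2 difference of Cxcr5 ran from -1.46 (without CML replicate 2) to -0.83 (without CML replicate 1).

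Ccr2, a receptor for Ccl2 that is known from monocytes and memory T cells, had 44.1, 36.5 and 89.7 RPKM in the CML mice against 27.1, 37.9 and 49.4 RPKM in the naive mice. The groups overlapped, and CML replicate 3 was far above the other libraries. The log2 difference of Ccr2 was 0.49, with a 95% interval from -0.36 to 1.34 (limma adjusted p = 0.689), and with 1 library left out it ran from 0.11 (without CML replicate 3) to 0.75 (without CML replicate 2). Of 6 monocyte and macrophage markers in the tables, Fcgr1 was listed at 0 in all libraries and Csf1r had at most 1.83 RPKM, while Cd68 reached 47.4 RPKM and Lyz2 12.6 RPKM. Ly6c2 had 25.2, 0 and 14.4 RPKM in the CML mice against 50.6, 41.5 and 29.0 RPKM in the naive mice. It was lower in CML without overlap, as were 12.2% of all features tested. The summed level of the 6 markers was 33.9 to 86.5 RPKM in CML mice and 65.2 to 107 RPKM in naive mice, and their part in the values of Ccr2 was not tested.

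Ccr4, which with Ccr8 is found on Tregs of skin and other tissues and binds Ccl17 and Ccl22, had 18.9, 8.59 and 29.6 RPKM in the CML mice against 24.7, 15.7 and 25.3 RPKM in the naive mice. CML Tregs held both the lowest and the highest value. The log2 difference of Ccr4 was -0.32, with a 95% interval from -1.34 to 0.71 (limma adjusted p = 0.823), and with 1 library left out it ran from -0.70 (without CML replicate 3) to 0.14 (without CML replicate 2). The ratio of Ccr8 to Ccr4 within a library does not depend on the scaling between libraries. This ratio, chosen after the values were seen, was 2.14, 3.83 and 1.52 in the CML mice against 0.323, 0.452 and 0.423 in the naive mice. Ccr8 thus exceeded Ccr4 in each CML library and was below it in each naive library.

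Ccr6, the receptor for Ccl20 on cells of mucosal tissues, had 15.2, 17.4 and 16.2 RPKM in the CML mice against 17.1, 26.7 and 21.2 RPKM in the naive mice. CML replicate 2 lay just above naive replicate 1. The log2 difference of Ccr6 was -0.37, with a 95% interval from -0.98 to 0.24 (limma adjusted p = 0.670), and with 1 library left out it ran from -0.53 (without naive replicate 1) to -0.22 (without naive replicate 2). Cxcr6, which binds Cxcl16, had 7.93, 14.7 and 8.94 RPKM in the CML mice against 13.9, 6.35 and 10.4 RPKM in the naive mice. The libraries of both groups were mixed, with a log2 difference of Cxcr6 of 0.05 and a 95% interval from -0.88 to 0.99 (limma adjusted p = 0.974).

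**Figure D2:**
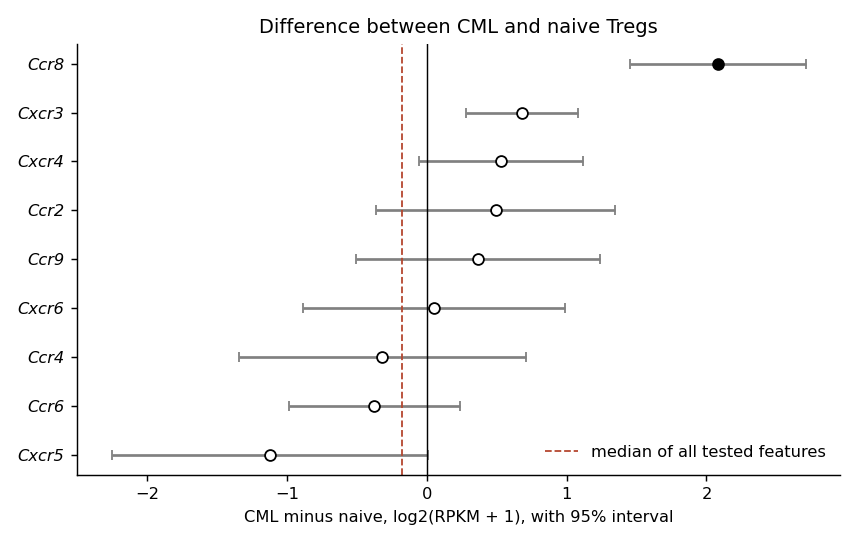
Log2 difference between CML and naive Tregs for each receptor on the log2(RPKM + 1) scale, with bars for the 95% interval of limma, a filled point for an adjusted p under 0.05 and a dashed line at the median of all 13923 features (-0.18). Ccr8 is the filled point at 2.08, the interval of Cxcr3 (0.28 to 1.08) also lies above 0, and the interval of Cxcr5 ends at 0.01.

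Ccr9, the receptor for Ccl25 of the thymus and gut, is also a known receptor of plasmacytoid dendritic cells. It had 43.5, 32.6 and 43.0 RPKM in the CML mice against 56.8, 21.4 and 22.8 RPKM in the naive mice. Naive replicate 1 was above all CML libraries, and the other naive libraries were below them. The log2 difference of Ccr9 was 0.37, with a 95% interval from -0.51 to 1.24 (limma adjusted p = 0.756), and became 0.81 without naive replicate 1, 0.12 without naive replicate 2 and 0.17 without naive replicate 3.

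Genes known as markers of plasmacytoid dendritic cells were read in the same libraries as Ccr9. All 5 markers of these cells, Siglech, Klk1, Ly6d, Cox6a2 and Runx2, had reads in every library, and none was called. Siglech, a surface lectin that defines these cells in mice, had 144, 137 and 129 RPKM in the CML mice against 222, 91.9 and 143 RPKM in the naive mice. Its highest and its lowest library were those of Ccr9. Summed, the 5 markers reached 422 to 471 RPKM in CML mice and 259 to 627 RPKM in naive mice. In the naive libraries, Ccr9 and the summed markers had the same order, but in the CML libraries they did not. The ratio of Ccr9 to Siglech was 0.303, 0.238 and 0.333 in the CML mice against 0.256, 0.232 and 0.159 in the naive mice, with overlap between the groups. Neither the cells that this marker RNA came from nor their part in the Ccr9 values was tested.

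**Figure D3:**
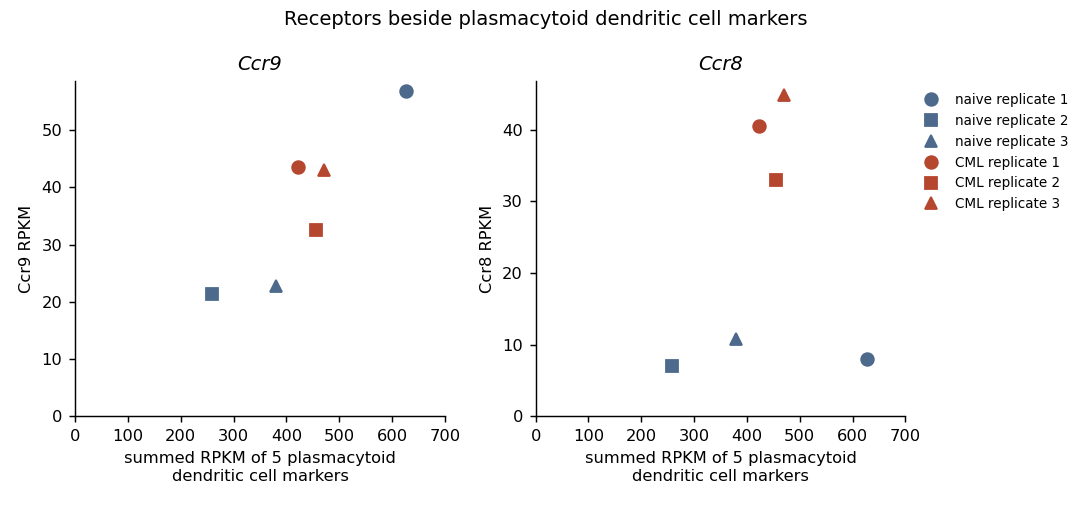
RPKM of Ccr9 (left) and Ccr8 (right) against the summed RPKM of 5 plasmacytoid dendritic cell markers, with 1 point for each of the 6 libraries. Ccr9 is highest where the markers are highest (naive replicate 1, 56.8 RPKM) and lowest where they are lowest (naive replicate 2, 21.4 RPKM). Among the CML libraries, Ccr9 and the markers do not have the same order. The Ccr8 points of the groups are apart (7.09 to 10.7 and 32.9 to 44.9 RPKM).

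RNA of other cells was also compared. Of 6 erythroid markers, 5 were tested, none was called, and their summed level was 32.8 to 168 RPKM in CML and 5.01 to 24.8 RPKM in naive Tregs, without overlap. The sum of 6 progenitor markers was 6.80 to 8.77 RPKM in CML and 2.71 to 3.93 RPKM in naive Tregs, also without overlap, with Hoxa9 listed at 0 in all libraries. The 8 neutrophil markers summed to 8.77 RPKM in CML replicate 1 and to 203 and 212 RPKM in CML replicates 2 and 3, compared with 23.5 to 53.3 RPKM in naive Tregs. The part of these cells in the receptor differences was not tested. Between the groups, Ccr8 and the erythroid sum were both higher in CML without overlap. Within the groups, they had the same order in the CML libraries and the reverse order in the naive libraries. The erythroid sum was lowest in naive replicate 3 (5.01 RPKM), where Ccr8 was highest among the naive mice (10.7 RPKM). Ccr8 and the neutrophil sum did not have the same order in either group. Orders of 3 libraries do not test the part of these cells in the Ccr8 values. Of 6 B cell markers, Pax5 and Ebf1 were among those listed at 0 in all libraries. The sum of the B cell markers was 3.18 to 8.80 RPKM in CML and 8.42 to 10.7 RPKM in naive Tregs, and its part in the values of Cxcr5 was not tested. Markers of CD8+ T and NK cells (5 genes) summed to 51.1 to 79.9 RPKM in CML and 27.6 to 60.3 RPKM in naive Tregs. Most of this sum was Cd8b1 (35.7 to 66.8 RPKM in CML, 23.4 to 52.2 RPKM in naive Tregs). Eomes was lower in CML without overlap (at most 0.144 RPKM against at least 0.483 RPKM). Markers of basophils and eosinophils (6 genes) summed to 6.05 to 20.1 RPKM in CML and 1.89 to 6.72 RPKM in naive Tregs.

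Summed over the 9 receptors, RNA was 403, 311 and 407 RPKM in the CML mice against 273, 252 and 266 RPKM in the naive mice. Cxcr4 and Cxcr3 had the highest mean levels in both groups, and neither exceeded the other beyond the spread between mice. In naive Tregs, Ccr2, Ccr9, Ccr4 and Ccr6 followed, with overlap between neighbors, then Cxcr6, Ccr8 and Cxcr5 at 10.2, 8.60 and 7.86 RPKM, with overlap between neighbors. In CML Tregs, Ccr8 stood beside Ccr9 (39.4 and 39.7 RPKM) and above Ccr4 without overlap. Cxcr6 and Cxcr5 were at the end of the order, again without overlap with the receptor before them. Ccr8 made up 10.04%, 10.6% and 11.03% of the summed receptor RPKM in the CML mice against 2.93%, 2.82% and 4.03% in the naive mice. Its share thus varied less between the CML mice than its RPKM did. The groups were also apart relative to Foxp3, as Ccr8 was 0.0864, 0.110 and 0.105 times Foxp3 in the CML mice against 0.0269, 0.0193 and 0.0307 times in the naive mice.

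**Figure D4:**
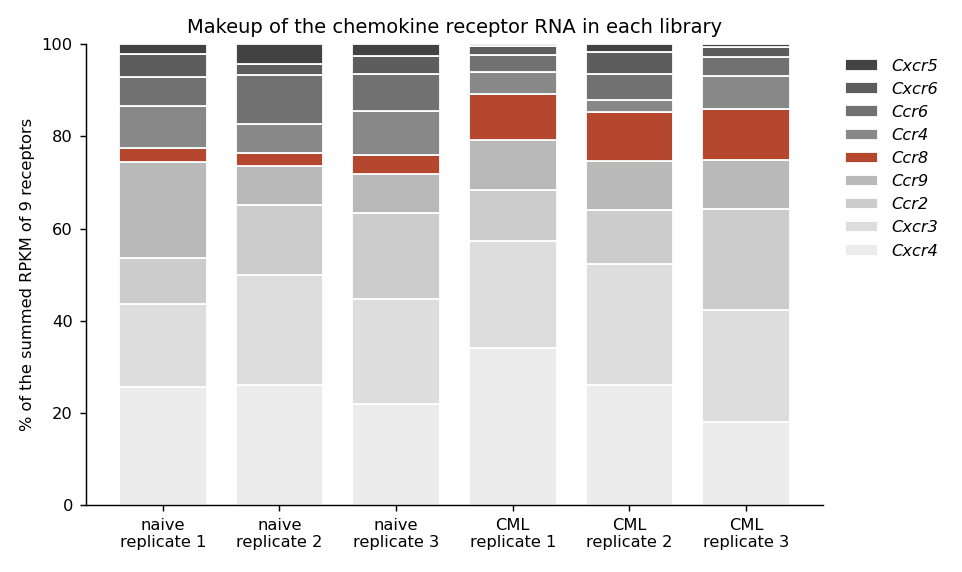
Share of each receptor in the summed RPKM of the 9 receptors (vertical axis, percent), with 1 stacked bar for each library and Ccr8 in color. Ccr8 takes 10.04% to 11.03% in the CML libraries and 2.82% to 4.03% in the naive libraries, while Cxcr4 and Cxcr3 hold the largest shares in most libraries.

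**Figure D5:**
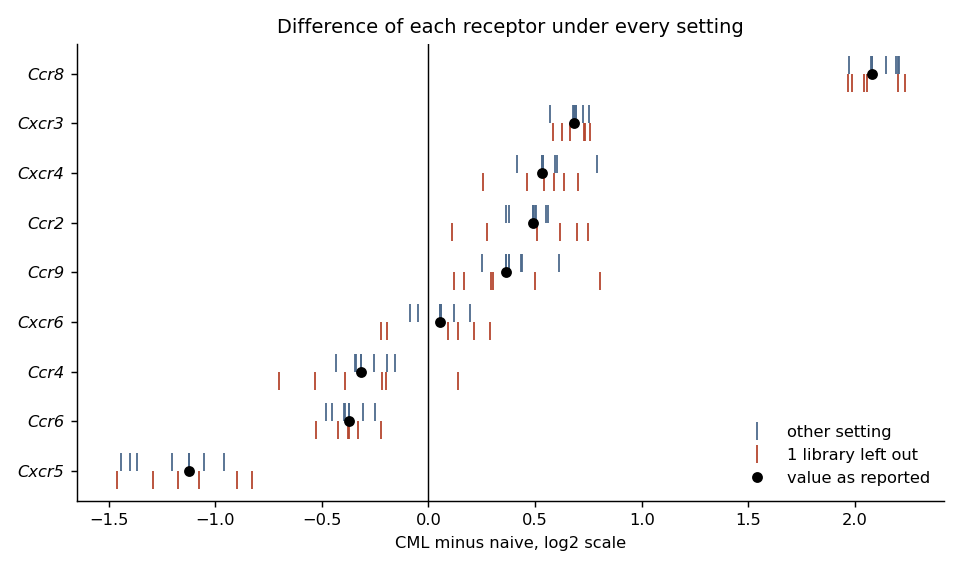
Log2 difference between CML and naive Tregs of each receptor under each setting, with a black point for the value as reported, red ticks for 1 library left out and blue ticks for the other alternatives. Ccr8 stays between 1.97 and 2.23, while Ccr4 (-0.70 to 0.14) and Cxcr6 (-0.22 to 0.29) reach both sides of 0.

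The median log2 difference of the 9 receptors was 0.37, compared with -0.18 for all features tested, and 6 receptors were above 0 and 3 below. Of all features, 35.7% were above 0. The sign of Cxcr6 turned when libraries were scaled to the same level of Cd3d, Cd3e, Cd3g and Cd4, with library weights, and without CML replicate 2 or naive replicate 2.

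Most ligands of the 9 receptors had no reads. Of 14 ligands in the tables, 9 were listed at 0 in all libraries, among them Cxcl12, Cxcl13, Ccl17, Ccl22 and Ccl20. The 3 ligands tested were Cxcl10, Cxcl9 and Ccl25, and none was called. Cxcl10, a ligand of Cxcr3, had 11.5, 8.12 and 19.1 RPKM in the CML mice against 7.79, 2.69 and 12.1 RPKM in the naive mice, with overlap (limma adjusted p = 0.655). Cxcl9 had 12.6 RPKM in CML replicate 3 and was listed at 0 in the other libraries. Ccl25, the ligand of Ccr9, was 4.27 ± 2.14 RPKM in CML and 5.97 ± 1.17 RPKM in naive Tregs (SD, n = 3 each, limma adjusted p = 0.740).

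Of 15 other receptors for chemokines or homing signals, 6 were tested and none was called. The lowest p-values were those of Gpr15 and Ccr7. Gpr15, a homing receptor for the colon, had 3.76, 6.68 and 3.64 RPKM in the CML mice against 25.4, 25.4 and 21.4 RPKM in the naive mice, without overlap (log2 difference -2.18, limma adjusted p = 0.0729). Ccr7, which leads cells into lymph nodes, had 1.91, 4.67 and 1.92 RPKM in the CML mice against 15.9, 22.4 and 8.57 RPKM in the naive mice, also without overlap (log2 difference -2.10, limma adjusted p = 0.238). Of all features tested, 12.2% were lower in CML without overlap.

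Downstream of the receptors, 25 of 27 genes of G proteins, receptor kinases, arrestins, PI3K gamma and Rac signaling were tested, and none was called. Their median log2 difference was -0.08. Gnai2, the main inhibitory G protein subunit of lymphocytes, had 397 ± 24.9 RPKM in CML and 398 ± 37.4 RPKM in naive Tregs (SD, n = 3 each), and the difference was smaller than the spread between mice. The lowest p-values were those of Pik3r5, a regulatory subunit of PI3K gamma (log2 difference -1.16, limma adjusted p = 0.505), Arrb2, which encodes beta-arrestin 2 (-0.39, adjusted p = 0.561), and Gng5, a G protein gamma subunit (-0.86, adjusted p = 0.566).

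Transcription factors with a known link to the receptors were read from the same fit. Of 7 such genes, Klf2 was called, and it was lower in CML, beside 0.129% of all features tested. Klf2, which keeps T cells in a resting and circulating state, had 91.5, 82.7 and 116 RPKM in the CML mice against 317, 327 and 230 RPKM in the naive mice, without overlap (log2 difference -1.58, limma adjusted p = 0.0416). Without CML replicates 1, 2 and 3 the limma adjusted p of Klf2 was 0.0984, 0.0644 and 0.0819, and without naive replicates 1, 2 and 3 it was 0.170, 0.271 and 0.0724, so that the call was lost each time. The call was also lost with a pseudocount of 0.001, without a filter on low values, with the replicate block and with a constant prior variance. Tbx21, which encodes T-bet, had 20.04, 17.4 and 21.7 RPKM in the CML mice against 5.93, 8.59 and 12.4 RPKM in the naive mice. It was above the naive libraries in each CML library, as Cxcr3 was, but missed the threshold (log2 difference 1.10, limma adjusted p = 0.346). Batf, an AP-1 family factor of effector Tregs, had 65.0, 41.5 and 163 RPKM in the CML mice against 35.7, 39.2 and 38.5 RPKM in the naive mice without overlap (log2 difference 0.99, limma adjusted p = 0.526). Of all features tested, 4.84% were higher and 12.2% lower in CML without overlap. Bcl6, which is linked to Cxcr5, had overlapping libraries.

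The genes with the profile most like that of Ccr8 over the 6 libraries were Neb, Lilrb4, Egr2, Smim24 and Tigit, of 10046 features compared. Likeness was measured on centered log2(RPKM + 1) profiles as Euclidean distance, which was 0.40 for Neb, 0.40 for Lilrb4, 0.57 for Egr2, 0.59 for Smim24 and 0.60 for Tigit, with a median of 2.91. Genes chosen in this way are higher in CML by the choice itself, so their calls are no separate result. Neb, Lilrb4 and Tigit were called higher (limma adjusted p = 0.0365, 0.0365 and 0.0350), beside 0.0431% of all features tested. Egr2 and Smim24 were not called (limma adjusted p = 0.218 and 0.154). For Cxcr5 the closest were Scarna6, Prr3, Atg101, Rab3ip and Mnat1, at distances of 0.32 to 0.63 with a median of 2.02. The log2 differences of these 5 genes ran from -1.22 to -0.91, a direction that follows from the choice, and none was called.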

How the data were processed

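RNA of FACS-purified BM Tregs from 3 naive and 3 CML mice was sequenced from SMART-Seq v4 libraries (single-end). The authors used SeqMan NGen v.15 and ArrayStar v.15 and deposited 1 value per feature and mouse, on GRCm38 (mm10) per the labels. The deposited values were used as RPKM, a unit read from the values and not named in the sources used here. Values of 0.001 mark features without reads and were set to 0. The 41 feature names that occur more than once were kept apart.

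Reads per library were estimated from 1297 microRNA and small nucleolar RNA genes, as value times length falls on steps of 1 read. Of products up to 20 steps, 30.5% to 59.0% lay within 0.05 of a whole step (10% by chance). Reads per receptor also use the GENCODE M21 length of the RefSeq transcript. These reads, and the exact Poisson intervals made from them, are approximate and cover counting error only.

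CML and naive Tregs were compared with limma 3.58.1 in R 4.3.3 (lmFit, eBayes with a trend, Benjamini-Hochberg adjustment) on log2(RPKM + 1), a scale that understates changes of low values. The study's methods name DESeq2, which needs counts and was not run here. Python 3.11.15 with pandas 2.3.3, numpy 2.4.6, scipy 1.17.1 and matplotlib 3.10.9 was used for the rest. The fit was tested on simulated data with the means and spreads of these libraries. It called 70% of 4-fold and 14% of 2-fold changes, set among features of higher level, and 4 unchanged features. A receptor that was not called may therefore still differ.

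The receptors, gene lists and alternatives were chosen with earlier results of these data known. Genes were named if they were receptors, were called in a list, or were among the 3 lowest p-values of a list. A gene that falls under this is not reported here. For likeness, the 5 closest features with a mean of at least 5 RPKM were named for Ccr8 and for the receptor lower in CML with the lowest p. Gnai2, Bcl6, Ccr1, Ccr3, Ccrl2, Lztfl1, marker genes, ligands at 0 and the ratios within libraries were chosen after their values were seen. Separate mice were the replicates. Alternatives covered the pseudocount, filter, scaling, library weights, prior variance, replicate block and each library left out.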

Additional observations from a re-analysis of the deposited data

How the results depend on the processing

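With the values as reported, 24 features and 1 receptor, Ccr8, were called. The number of features was 0 with a pseudocount of 0.001 (973 at unadjusted p-values under 0.05 and this fold), 1 without a filter on low values, 53 after quantile normalization, 53 after scaling to the 75th percentile, 49 with the same level of 4 T cell genes, 11 with a constant prior variance and 45 with library weights. It ran from 0 to 29 with 1 library left out (0 without naive replicate 1 and 0 without naive replicate 2, where 745 and 731 features passed unadjusted). The number of receptors called by limma was 0 with a pseudocount of 0.001, without a filter, with a constant prior variance and with any 1 library left out, and in each of these fits 2 or 3 receptors passed the fold at an unadjusted p under 0.05. With the replicate number as a block, 1 feature and 0 receptors were called (2 receptors at the unadjusted p). The limma adjusted p of Ccr8 was then 0.147. Deviations of same-numbered mice had correlations of -0.0048, -0.0016 and -0.019, and those of differently numbered mice ran from -0.042 to 0.052. With so few mice, these values cannot decide whether mice were handled in pairs. Direction held in 139 of 144 values of single receptors. With 1 library left out, Ccr4 ran from -0.70 to 0.14 (0.14 without CML replicate 2) and Cxcr6 from -0.22 to 0.29. Cxcr6 turned to -0.050 with the same level of T cell genes, -0.087 with library weights, -0.19 without CML replicate 2 and -0.22 without naive replicate 2. The median log2 difference of all features was -0.18 as deposited, -0.0068 with quantile normalization and -0.28 with the level of T cell genes. The causes were not tested. Depth limits low values such as Cxcr5 in CML replicate 2, which rests on an estimated 12 reads.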

Other observations

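Of the 9 receptors, 6 lie on chromosome 9, and Ccr9, Cxcr6 and Ccr2 lie in the chemokine receptor cluster there, within 342 kb of GRCm38. Cxcr6 lies 23.0 kb behind Ccr9. The highest library was naive replicate 1 for Ccr9, CML replicate 2 for Cxcr6 and CML replicate 3 for Ccr2. Of other receptor genes of the cluster, Ccrl2 had 2.23 to 12.1 RPKM, Ccr3 had 0.892 to 5.58 RPKM, Ccr1 had 0 to 3.52 RPKM and Xcr1 was listed at 0 in all libraries. These are not all receptor genes of the cluster.

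Some receptor genes overlap other genes in GENCODE M21, and the strand of reads is not stated to have been used for counting. The GENCODE span of Ccr9 overlaps several genes, among them Lztfl1 on the opposite strand. Lztfl1 had 1.37 to 33.2 RPKM in CML mice and 8.96 to 13.4 RPKM in naive mice. It ends at 123717697, before the RefSeq start of Ccr9 at 123767211. Cxcr6 lies within Fyco1 on the opposite strand, and the end of Cxcr5 overlaps that of Bcl9l, also on the opposite strand. Cxcr5 and Bcl9l share only the stretch of chromosome 9 from 44511787 to 44511896, while the Cxcr5 transcript has 2614 bases. The part of Bcl9l reads in the Cxcr5 values was not tested. Fyco1 had 32.7 to 52.4 RPKM in CML mice and 46.7 to 57.4 RPKM in naive mice. Bcl9l had 20.1 to 24.5 RPKM in CML mice and 32.8 to 43.3 RPKM in naive mice, lower in CML without overlap, as Cxcr5 was. Reads of such partners cannot be told apart where exons overlap.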
